A study of Mus musculus with 16 samples.

Results

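The genes described here are the DNA replication and S-phase genes, 40 genes chosen by name for their part in copying the genome. All 40 were found in the deposited gene table, which holds 53333 gene rows, and they lie on 15 chromosomes. They were grouped by role into origin licensing and the replicative helicase (13 genes), polymerases and primase (5), the sliding clamp, its loader and the single-strand binding protein (9), flap removal and ligation (2), chromatin assembly and maintenance methylation (4), deoxynucleotide synthesis (3) and regulators of S phase (4).

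RNA was sequenced from mHiPPoE-2, a transformed mouse hippocampal line (strain Crl:CFW(SW)-024) grown untreated in medium with serum. The 16 libraries fall into 8 groups of 2, and every group other than the unedited wild type (WT) is 1 clonal isolate. METTL3 KO is a Cas9-guided knockout of Mettl3 in 1 clone. The Cas9 controls received Cas9 with no guide RNA (2 clones), and RBM45 KO is a Cas9-guided knockout of Rbm45 (2 clones). KO rescue (2 clones) carries the same kind of RBM45 knockout together with F-HA-tagged RBM45_mut[delta]gRNA, so controls, knockouts and rescues have all been through Cas9 and single-cell cloning, and WT has not. RBM45 is an RNA-binding protein, and METTL3 is the catalytic subunit of the enzyme that writes N6-methyladenosine into RNA. Nothing in the labels ties the 2 libraries of a clone to separate cultures, so p-values that use libraries as units measure only the spread between libraries.

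Before S phase, CDC6 and CDT1 load the MCM2 to MCM7 ring onto origins, and CDC45 with the GINS complex turns that ring into the moving helicase. Polymerases alpha, delta and epsilon then take part in copying both strands behind it. The RFC complex loads the PCNA clamp, while RPA covers single-stranded DNA. Many of these genes are transcribed together as cells leave G1, under E2F factors, so their summed RNA is widely used as a sign of how many cells are in or near S phase.

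Promoters were looked at first, because an E2F word is a sequence feature that replication genes are known for. RefSeq promoters (GRCm38.p6, 250 bases before to 50 after the start) were in the reference table for 34 of the 40 genes. A gene with more than 1 promoter was searched only at the start that lies furthest upstream. An E2F word (TTTGGCGC, TTTCGCGC, TTTGCCGC or TTTCCCGC, either strand) was present in 10 of those 34 promoters (29.4%), against 12 of 35 promoters of other replication genes (34.3%) and 629 of all 27025 promoters of the same length (2.33%). The 10 genes were Mcm3, Mcm5, Mcm6, Mcm7, Cdc6, Cdt1, Gins3, Pola1, Pold1 and Rfc3, and 7 of these 10 are licensing and helicase genes. The CCAAT box, a word read by NF-Y, was in 22 of the 34 (64.7%) and in 38.0% of all promoters. The cell cycle homology words TTTGAA and TTTAAA, known from genes of G2 and mitosis, were in 8 of the 34 (23.5%) and in 27.9% of all promoters. In the promoters of a list of mitosis genes the order was the reverse, with an E2F word in 1 of 20 and a TTTGAA or TTTAAA word in 17 of 20. A match describes letters and is not a measured binding site.

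The 6 promoters shown belong to the genes with the smallest p-values between KO rescue and control that were in the reference table. Capitals mark E2F words and CCAAT boxes on either strand. Mcm3 lies at chr1:20820263-20820562 (minus strand), Chaf1b at chr16:93883651-93883950 (plus), Fen1 at chr19:10204344-10204643 (minus), Cdc45 at chr16:18811923-18812222 (minus), Pcna at chr2:132253131-132253430 (minus) and Cdc6 at chr11:98907901-98908200 (plus).
Mcm3: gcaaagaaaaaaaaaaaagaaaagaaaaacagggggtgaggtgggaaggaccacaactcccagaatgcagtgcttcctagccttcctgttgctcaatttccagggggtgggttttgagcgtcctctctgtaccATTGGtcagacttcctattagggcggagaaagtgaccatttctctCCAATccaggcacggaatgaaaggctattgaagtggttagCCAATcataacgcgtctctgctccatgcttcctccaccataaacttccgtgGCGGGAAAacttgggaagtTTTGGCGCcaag
Chaf1b: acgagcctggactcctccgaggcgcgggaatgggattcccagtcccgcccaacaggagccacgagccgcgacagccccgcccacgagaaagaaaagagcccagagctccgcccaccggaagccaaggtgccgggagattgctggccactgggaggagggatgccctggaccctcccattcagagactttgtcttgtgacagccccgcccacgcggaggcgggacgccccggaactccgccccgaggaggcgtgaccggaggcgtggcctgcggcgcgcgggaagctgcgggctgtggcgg
Fen1: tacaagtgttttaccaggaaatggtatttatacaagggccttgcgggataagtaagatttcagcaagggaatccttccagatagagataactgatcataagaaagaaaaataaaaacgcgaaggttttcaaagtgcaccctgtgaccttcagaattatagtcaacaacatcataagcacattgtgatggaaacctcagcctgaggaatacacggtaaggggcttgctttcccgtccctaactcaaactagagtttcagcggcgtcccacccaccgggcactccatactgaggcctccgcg
Cdc45: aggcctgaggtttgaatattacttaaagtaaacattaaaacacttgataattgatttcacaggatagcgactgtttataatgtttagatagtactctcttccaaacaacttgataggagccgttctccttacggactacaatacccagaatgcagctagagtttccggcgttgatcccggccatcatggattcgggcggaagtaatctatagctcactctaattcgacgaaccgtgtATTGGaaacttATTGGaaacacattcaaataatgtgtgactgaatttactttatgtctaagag
Pcna: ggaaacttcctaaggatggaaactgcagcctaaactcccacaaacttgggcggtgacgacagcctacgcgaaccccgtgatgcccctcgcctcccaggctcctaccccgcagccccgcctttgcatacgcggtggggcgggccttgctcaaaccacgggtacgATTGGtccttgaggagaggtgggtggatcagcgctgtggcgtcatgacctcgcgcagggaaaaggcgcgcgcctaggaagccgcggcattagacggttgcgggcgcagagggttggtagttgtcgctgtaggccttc
Cdc6: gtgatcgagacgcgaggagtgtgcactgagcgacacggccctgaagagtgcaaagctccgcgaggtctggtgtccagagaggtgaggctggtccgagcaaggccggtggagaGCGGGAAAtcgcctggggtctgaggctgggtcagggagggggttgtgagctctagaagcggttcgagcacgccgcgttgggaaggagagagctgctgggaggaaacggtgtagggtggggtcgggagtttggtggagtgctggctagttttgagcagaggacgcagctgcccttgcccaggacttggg
Mcm3 held 2 E2F words, first bases 19 and 38 after the start, and 3 CCAAT boxes. Cdc6 held 1 E2F word, which begins at base -138. Cdc45 held 2 CCAAT boxes, Pcna held 1, and Chaf1b and Fen1 held neither word in this window. Fen1 has 2 promoters in the reference, and the window shown lies wholly upstream of the counted gene. Its other promoter was not searched. An E2F word was in 7 of the 18 promoters of genes that were lower in KO rescue than in control with libraries as units, in 3 of 14 that were not called, and in 0 of 2 that were higher.

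Assigned fragments per library ranged from 7193908 to 18751324 (median 12883429), and the mean count of a member over the libraries ranged from 74.1 to 1749.7 (27 to 2514 in single libraries). Levels below are CPM, counts divided by the size of their library after TMM scaling (a scaling by trimmed means between libraries). Replicate libraries differed by 1.70 to 4.85 times the variance of counting alone. The targeted genes followed the labels in level. Rbm45 was at 12.8 to 16.7 CPM in the 4 control libraries, at 5.70 to 10.8 in the 4 RBM45 KO libraries and at 21.1 to 25.9 in the 4 KO rescue libraries, with no overlap between these groups. Over clones, its log2 difference between RBM45 KO and control was -0.88 (SE 0.20) and did not pass (edgeR adjusted p = 0.754). Mettl3 was at 11.7 and 8.79 CPM in WT and at 3.71 and 3.35 in METTL3 KO, and fell by 1.53 on the log2 scale (SE 0.20, edgeR quasi-likelihood test, Benjamini-Hochberg adjusted p = 6.81e-05). The label calls the line neuronal, but of 19 neuron markers 15 had a median under 1 CPM, and Nefl, Dcx and Stmn2 were at 0 in every library. Map2 was at 39.7 to 138 CPM, Eno2 at 4.86 to 9.21 and Elavl3 at 3.18 to 6.58, and Tubb3 had a median of 1.02. All 10 mesenchymal markers had medians of 1 CPM or more, with Fn1 at 618 to 1938 and Vim at 420 to 1406. The lowest medians of that list were 1.52 for Col3a1, 1.79 for Col1a2 and 3.01 for Twist1. Clones did not group by genotype. Of 16223 genes tested, 0.771% were called between RBM45 KO clone 1 and control clone 1, and KO rescue clones 1 and 2 differed from RBM45 KO clone 2 in 1.38% and 1.78%, whereas the 2 control clones differed from each other in 19.6% and the 2 RBM45 KO clones in 14.1%. Results by genotype are therefore given over clones and also for each pair of clones.

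Every replication gene was expressed in every group. Per kilobase of exon, the highest levels over the 16 libraries were those of Pcna, the sliding clamp (48.9 ± 7.82 exon CPM per kb, SD, n = 16), Mcm3 (40.8 ± 10.6) and Mcm4 (40.02 ± 6.30), the last of which are subunits of the helicase ring. The lowest were Gins3, a subunit of the GINS complex (2.22 ± 0.658), Mcm10, a helicase activator (4.26 ± 0.643), and Cdc6, the licensing ATPase (5.03 ± 0.824). Summed over the 40 genes, the level was 1749 to 1907 CPM in WT, 1474 to 1519 in METTL3 KO, 1740 to 2022 in control, 1695 to 1949 in RBM45 KO and 1572 to 1639 in KO rescue. Both METTL3 KO libraries and all 4 KO rescue libraries were thus below every WT, control and RBM45 KO library, as the plot of summed levels also shows. Not every set of replication genes was lower. A list of other replication genes summed to 1144 to 1203 CPM in METTL3 KO and 1163 to 1168 in WT. That list summed to 1107 to 1195 in KO rescue, 1118 to 1234 in RBM45 KO and 1202 to 1292 in control. Polymerase and primase genes summed to 172 to 178 in METTL3 KO and 161 to 171 in WT. They summed to 168 to 212 in KO rescue and 179 to 208 in control. In bulk RNA, fewer cells in S phase and less RNA per cell cannot be told apart.

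**Figure D1:**
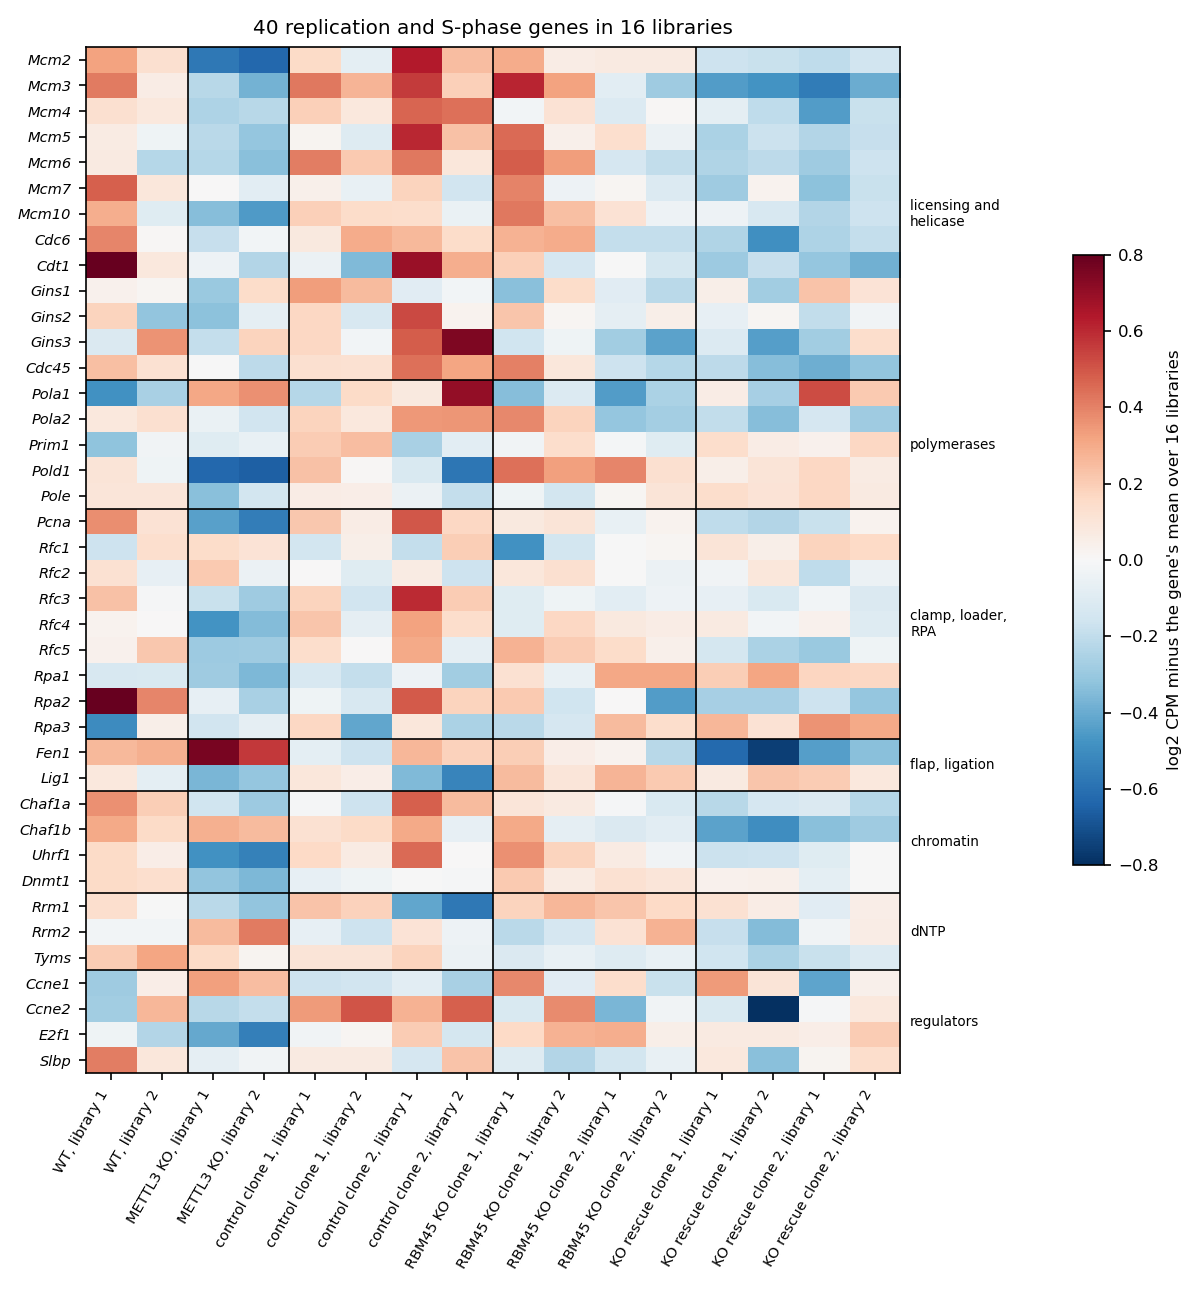
Level of each of the 40 replication genes in each of the 16 libraries, as log2 CPM minus the gene's mean over libraries (colour, -0.8 to 0.8), with genes in rows by role and libraries in columns by group. Most helicase rows are lowest in METTL3 KO and KO rescue, and the 2 clones of a genotype differ in many rows.

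**Figure D2:**
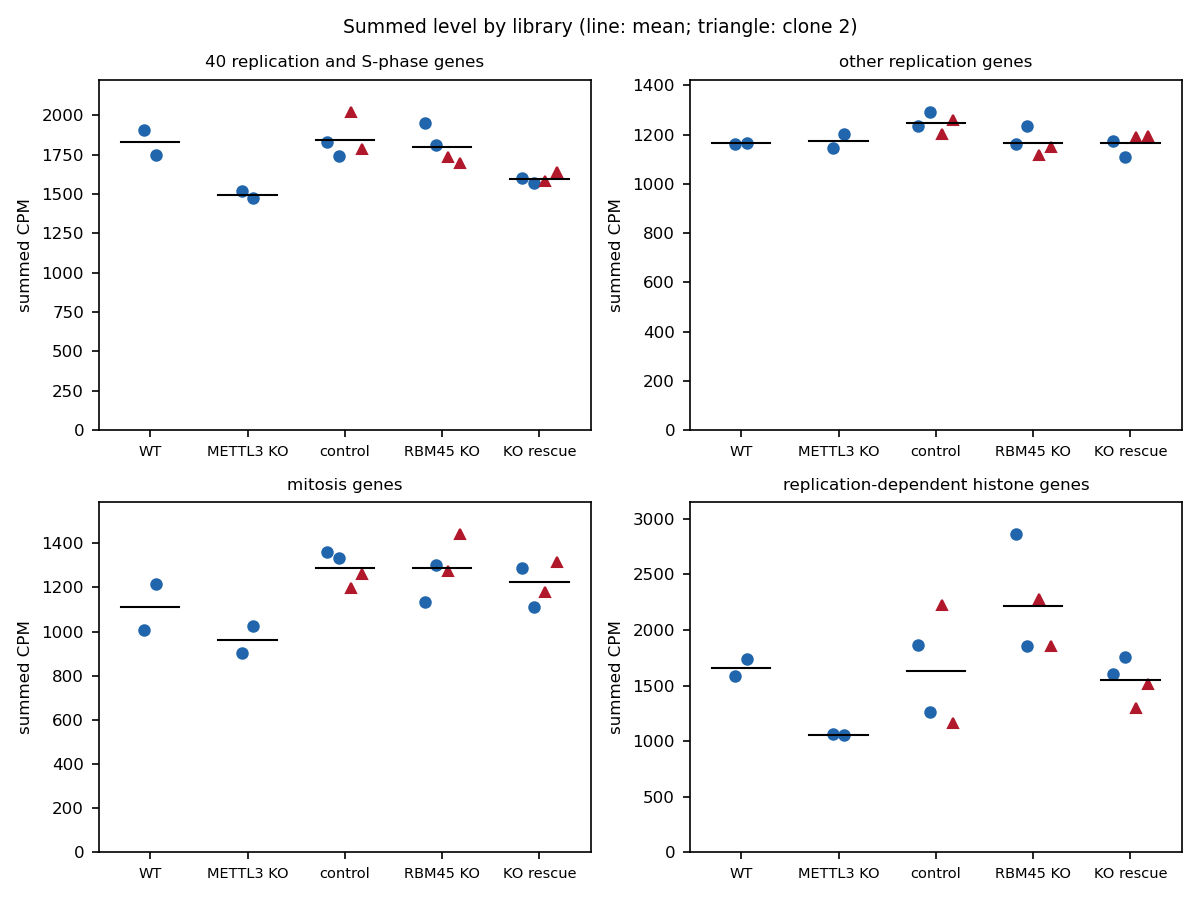
Summed CPM per library for the 40 replication genes, other replication genes, mitosis genes and histone genes. Circles and triangles are libraries of clones 1 and 2, and lines are group means; the 40 genes reach 1572 to 1639 CPM in KO rescue and 1740 to 2022 in control.

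Loss of RBM45 was examined by setting the 2 RBM45 KO clones against the 2 Cas9 control clones. The median log2 change of the 40 genes was -0.094, against -0.013 over all genes, with 26 genes below 0 and 14 above. None passed an adjusted p of 0.05 (edgeR quasi-likelihood, Benjamini-Hochberg over 16867 genes), and 0% of all genes did. At an unadjusted p under 0.05 the count was also 0, against 5.83% of all genes, and DESeq2 called none. Without control clone 2 the median was 0.0129 and without RBM45 KO clone 2 it was -0.00576, so its sign rests on those clones.

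Gins3 was at 8.22 and 7.21 CPM in control clone 1, 10.2 and 12.3 in control clone 2, 6.56 and 7.16 in RBM45 KO clone 1, and 6.04 and 5.46 in RBM45 KO clone 2. All 4 knockout libraries were below all 4 controls, the nearest by a very small gap, and the log2 difference was -0.60 (SE 0.25, edgeR adjusted p = 0.754). Lig1, the ligase that seals Okazaki fragments, was at 49.0, 47.8, 36.2 and 32.1 CPM in the controls and at 55.0, 49.4, 55.7 and 53.5 in the knockouts. Every knockout library was above every control, most of all above control clone 2, with a log2 difference of 0.38 (SE 0.19, same adjusted p). Rpa1, the large subunit of the single-strand binding protein, stood at 0.35 (SE 0.15), Pold1, the catalytic subunit of polymerase delta, at 0.43 (SE 0.19), and Pola1, that of polymerase alpha, at -0.53 (SE 0.23). For these 3 genes the libraries of the groups overlapped. Groups without overlap were found for 4 genes, Gins3 and Tyms (thymidylate synthase) below and Lig1 and Dnmt1 (the maintenance DNA methyltransferase) above, against 6.92% of all genes in either direction.

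With libraries in place of clones as units, 7 of the 40 genes passed the edgeR test, against 15.5% of all genes. Mcm4, Gins3 and Pola1 were lower, and Pold1, Rpa1, Lig1 and Rrm1 (the large subunit of ribonucleotide reductase) were higher. This fit takes the 2 libraries of a clone for independent samples. Counted in exons alone, Pola1 did not pass in it (edgeR adjusted p = 0.143), and Rfc3 did (-0.38, edgeR adjusted p = 0.0264). Over single pairs of clones, 0 genes differed between RBM45 KO clone 1 and control clone 1 (0.771% of all genes), 7 between RBM45 KO clone 1 and control clone 2 (18.4%), 4 between RBM45 KO clone 2 and control clone 1 (17.2%), and 15 between RBM45 KO clone 2 and control clone 2 (25.5%). None was called the same way in all 4 pairs, against 0.105% of all genes. The number of replication genes called thus followed the number of all genes called in that pair.

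Restoration of RBM45 was examined by setting KO rescue against RBM45 KO. The median log2 difference of the 40 genes was -0.18 (all genes -0.007), 31 genes were below 0, and 11 of the 13 licensing and helicase genes were among them. Over clones, 0 genes passed the adjusted test, as did 0% of all genes, and 4 had an unadjusted p under 0.05, against 7.35% of all genes. Without RBM45 KO clone 1 the median was -0.12.

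Mcm3 was at 127 and 104 CPM in RBM45 KO clone 1, 78.7 and 68.6 in RBM45 KO clone 2, 61.2 and 59.9 in KO rescue clone 1, and 56.7 and 63.3 in KO rescue clone 2. All rescue libraries were lower, but RBM45 KO clone 2 lay closer to them than to RBM45 KO clone 1, and the log2 difference was -0.65 (SE 0.22, edgeR adjusted p = 0.662). Without RBM45 KO clone 1 it was -0.30. Fen1, the flap endonuclease, was at 30.3, 27.4, 27.0 and 22.7 CPM in the knockouts and at 17.2, 15.72, 19.5 and 20.97 in the rescues, a difference of -0.55 (SE 0.19, edgeR adjusted p = 0.662). Here too the groups did not overlap, and the gap was small between RBM45 KO clone 2 and KO rescue clone 2. Chaf1b, a subunit of the histone chaperone CAF-1, and Rfc5, a clamp loader subunit, stood at -0.41 (SE 0.15) and -0.36 (SE 0.13) with the same adjusted p. Mcm10 stood at -0.34 (SE 0.16, edgeR adjusted p = 0.665).

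All 4 rescue libraries were below all 4 knockout libraries for 9 genes (Mcm2, Mcm3, Mcm5, Cdt1, Rfc5, Fen1, Chaf1b, Dnmt1 and Rrm1), against 6.89% of all genes. With libraries as units, 11 genes passed the edgeR test (18% of all genes), and 10 of them were lower (8.37% of all genes were lower): Mcm2, Mcm3, Mcm5, Mcm6, Mcm10, Cdc6, Cdc45, Rfc5, Fen1 and Chaf1b. Pola1 was the 1 that was higher. Counted in exons alone, Mcm2, Mcm10, Cdc6 and Pola1 did not pass with libraries as units (edgeR adjusted p = 0.147, 0.101, 0.126 and 0.273). Pola2 passed in exons only (-0.32, edgeR adjusted p = 0.0306). By pairs of clones, the calls followed the knockout clone used. Against RBM45 KO clone 1, 11 genes differed in KO rescue clone 1 (18.9% of all genes) and 12 in KO rescue clone 2 (21.5%). Against RBM45 KO clone 2, 1 gene differed in KO rescue clone 1 (1.38%) and 0 in KO rescue clone 2 (1.78%). No gene was called the same way in all 4 pairs, against 0.24% of all genes.

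KO rescue and the Cas9 controls were compared next. Both of these comparisons with KO rescue share the rescue libraries, and both comparisons with control share the control libraries, so they are not independent. KO rescue was lower than control across the licensing and helicase genes: all 13 were below 0 in log2 difference, with a median of -0.48. The 4 chromatin genes had a median of -0.31, the 9 clamp, loader and RPA genes -0.16, and the 5 polymerase and primase genes 0.04. Over all 40 genes the median was -0.26 (all genes -0.010), and 29 were below 0. Even so, 0 of the 40 passed the adjusted test over clones (0% of all genes did). An unadjusted p under 0.05 was reached by 11 genes, 6 of them licensing and helicase genes, against 15.5% of all genes. DESeq2 called 1, Mcm3.

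**Figure D3:**
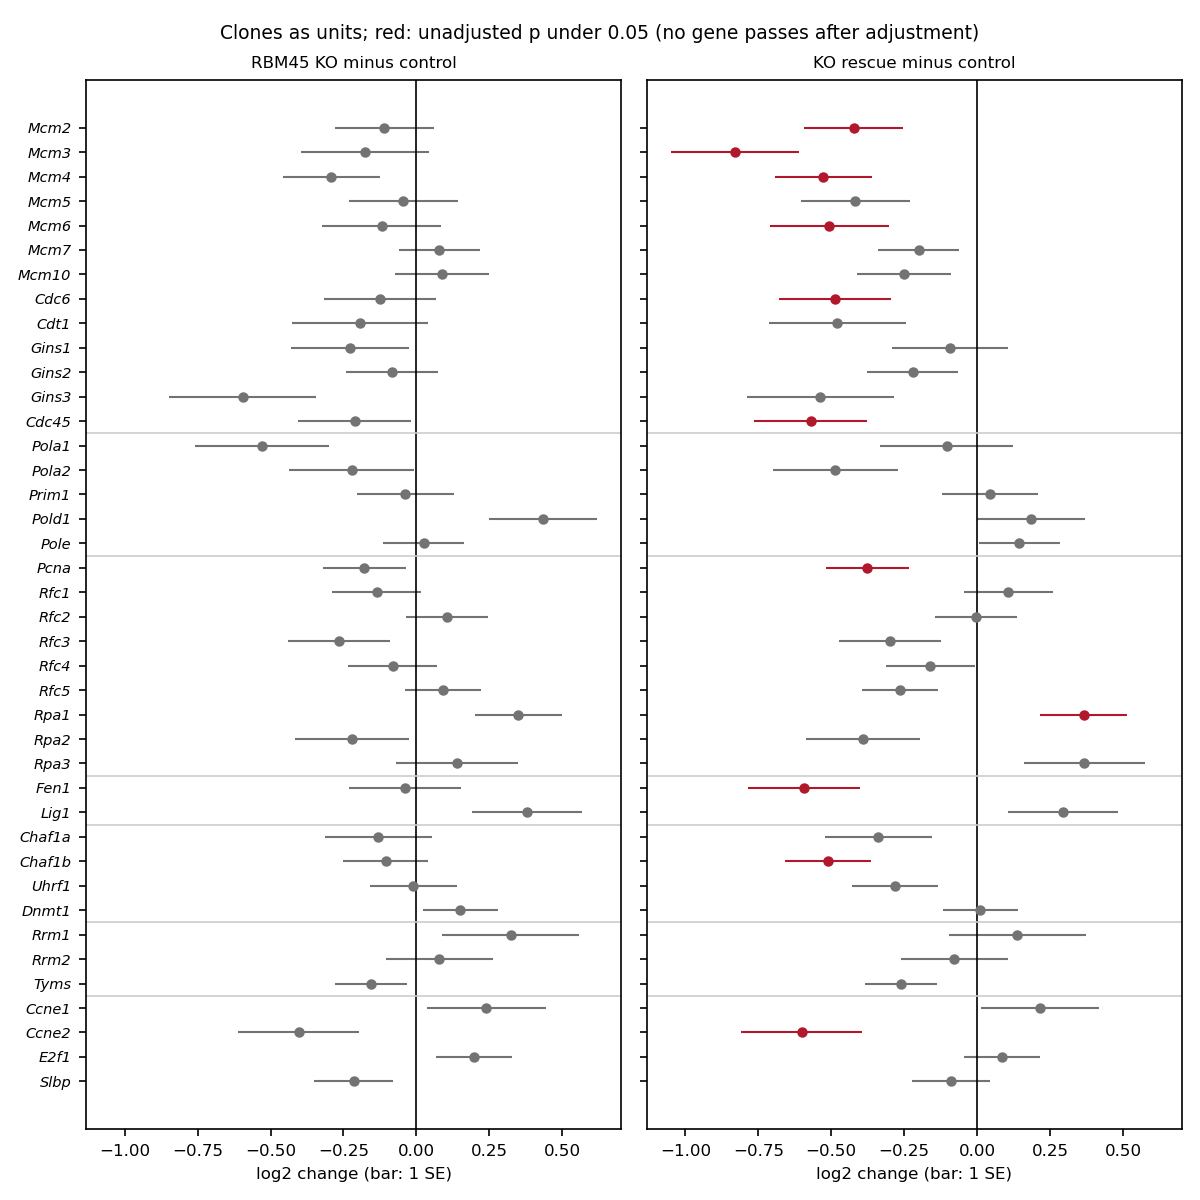
Log2 difference of each of the 40 genes between RBM45 KO and control and between KO rescue and control, over 2 clones a group, with bars of 1 SE and red for an unadjusted p under 0.05. In the second panel all 13 licensing and helicase genes lie to the left of 0 and Rpa1 is the red gene to its right; no gene passed the adjusted test in either panel.

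Mcm3 was at 112 and 101 CPM in control clone 1 and 123 and 95.4 in control clone 2, a mean of 108 ± 12.4 (SD, n = 4 libraries). In KO rescue it was at 61.2, 59.9, 56.7 and 63.3 CPM, a mean of 60.3 ± 2.77. The highest rescue library was thus far below the lowest control, and the log2 difference was -0.83 (SE 0.22, edgeR adjusted p between 0.276 and 0.319, the range over the 11 genes). Mcm4, another ring subunit, was at 87.8, 81.5, 106 and 105 CPM in control and at 73.0, 66.9, 56.4 and 68.0 in KO rescue, a difference of -0.53 (SE 0.17). Its groups did not overlap either. Mcm6, also of the ring, was at 138, 119.7, 139 and 111 CPM in control and at 88.0, 89.8, 85.1 and 92.3 in KO rescue, without overlap (-0.51). Mcm2 was at 106, 90.8, 148 and 114 CPM in control and at 85.6, 84.6, 83.4 and 86.0 in KO rescue (-0.42). Its rescue libraries were close together and its control libraries were spread. Without control clone 2, the Mcm2 difference was -0.21 and the Mcm4 difference -0.35, while that of Mcm3 was -0.82.

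Cdc45, which joins the ring in the active helicase, was at 24.0, 23.9, 29.7 and 27.2 CPM in control and at 18.98, 17.3, 16.7 and 17.6 in KO rescue (-0.57, SE 0.19). Cdc6, which loads the ring, was at 18.01, 20.9, 20.4 and 18.9 CPM in control and at 14.4, 12.1, 14.4 and 14.9 in KO rescue (-0.49). In both genes every rescue library was below every control. Chaf1b was at 24.6, 25.2, 27.9 and 21.6 CPM in control and at 16.8, 16.04, 17.97 and 18.6 in KO rescue (-0.51, SE 0.15), and Fen1 at 25.0, 23.6, 31.8 and 30.1 against 17.2, 15.72, 19.5 and 20.97 (-0.59, SE 0.19). Neither gene overlapped between the groups. Pcna was at 65.3, 58.4, 79.2 and 62.9 CPM in control and at 48.8, 47.7, 49.6 and 57.4 in KO rescue (-0.38). Ccne2, cyclin E2, which with CDK2 drives entry into S phase, was at 25.5, 28.5, 24.4 and 28.0 CPM in control and at 18.5, 10.1, 19.98 and 21.4 in KO rescue (-0.60). Both were lower in every rescue library, Pcna by a narrow gap. Rpa1 went the other way, at 88.5, 84.7, 93.9 and 79.7 CPM in control and 111, 120.1, 109 and 109 in KO rescue (0.37), and was likewise high in RBM45 KO clone 2, at 119.7 and 119.96. Its row joins overlapping gene models, as the row of Mcm7 does.

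All 4 rescue libraries were below all 4 control libraries for 15 of the 40 genes, against 12% of all genes. These were Mcm2 to Mcm6, Cdc6, Cdc45, Pola2, Pcna, Rpa2, Fen1, Chaf1b, Uhrf1, Tyms and Ccne2. All 4 rescue libraries were above for 2 genes, Rpa1 and Pole, against 11.9% of all genes. Genes of deoxynucleotide synthesis and regulators were mixed: Rrm2 was at 46.8 to 56.6 CPM in control and 41.4 to 54.8 in KO rescue, and E2f1, the activating E2F factor itself, at 18.5 to 23.6 and 21.2 to 23.5, with the groups overlapping in both. With libraries as units, 22 genes passed the edgeR test, against 34.3% of all genes. Of these, 20 were lower (16.9% of all genes were lower), and Rpa1 and Lig1 were higher. Counted in exons alone, Cdt1, Rfc3, Rfc5, Uhrf1 and Tyms narrowly missed the threshold (edgeR adjusted p from 0.0517 to 0.0566). Mcm10, lower, and Rrm1, higher, passed in exons only (edgeR adjusted p = 0.0467 and 0.0444).

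Single pairs of clones were then tested with libraries as units, and the replication genes called lower in all 4 pairs of a rescue and a control clone were Mcm3, Mcm6, Cdc45 and Chaf1b. A call in all 4 pairs, in 1 direction or the other, was reached by 7.51% of all genes, and a lower call in all 4 by 3.91%. Mcm3 differed by -0.86 to -0.81 over the pairs (largest edgeR adjusted p of the 4 pairs 0.00113), Mcm6 by -0.54 to -0.49 (0.0142), Cdc45 by -0.73 to -0.40 (0.0436) and Chaf1b by -0.60 to -0.43 (0.0357). A clone enters more than 1 pair, so the pairs are not independent. The pairs called 9 of the 40 genes between KO rescue clone 1 and control clone 1 (19.2% of all genes), 23 between KO rescue clone 1 and control clone 2 (30.3%), 5 between KO rescue clone 2 and control clone 1 (18.7%), and 19 between KO rescue clone 2 and control clone 2 (30.8%). Both rescue clones thus had more replication genes called against control clone 2, as was the case for all genes.

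Which genes held in all 4 pairs depended on single libraries. Mcm3 was among them whichever library was left out. It stood alone without replicate 1 of control clone 1, replicate 2 of KO rescue clone 1 or replicate 1 of KO rescue clone 2. It was joined by Mcm6 alone without replicate 2 of control clone 1 or replicate 2 of KO rescue clone 2, and by Chaf1b alone without replicate 1 of KO rescue clone 1. Without replicate 1 of control clone 2 the genes were Mcm3 and Cdc45, lower, and Rpa1, higher. Counted in the table of exons, the 4 genes were Mcm3, Mcm6, Cdc6 and Pola2, the last of which is the second subunit of polymerase alpha. Below 0 in all 4 pairs, called or not, were 24 of the 40 genes between KO rescue and control and 26 between KO rescue and RBM45 KO. Between RBM45 KO and control there were 10. In single pairs, 48.6 to 51.4% of all genes were below 0. The share of all genes below 0 in all 4 pairs is not given here. Pairs that share a clone move together, so no conclusion is drawn from these counts.

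**Figure D4:**
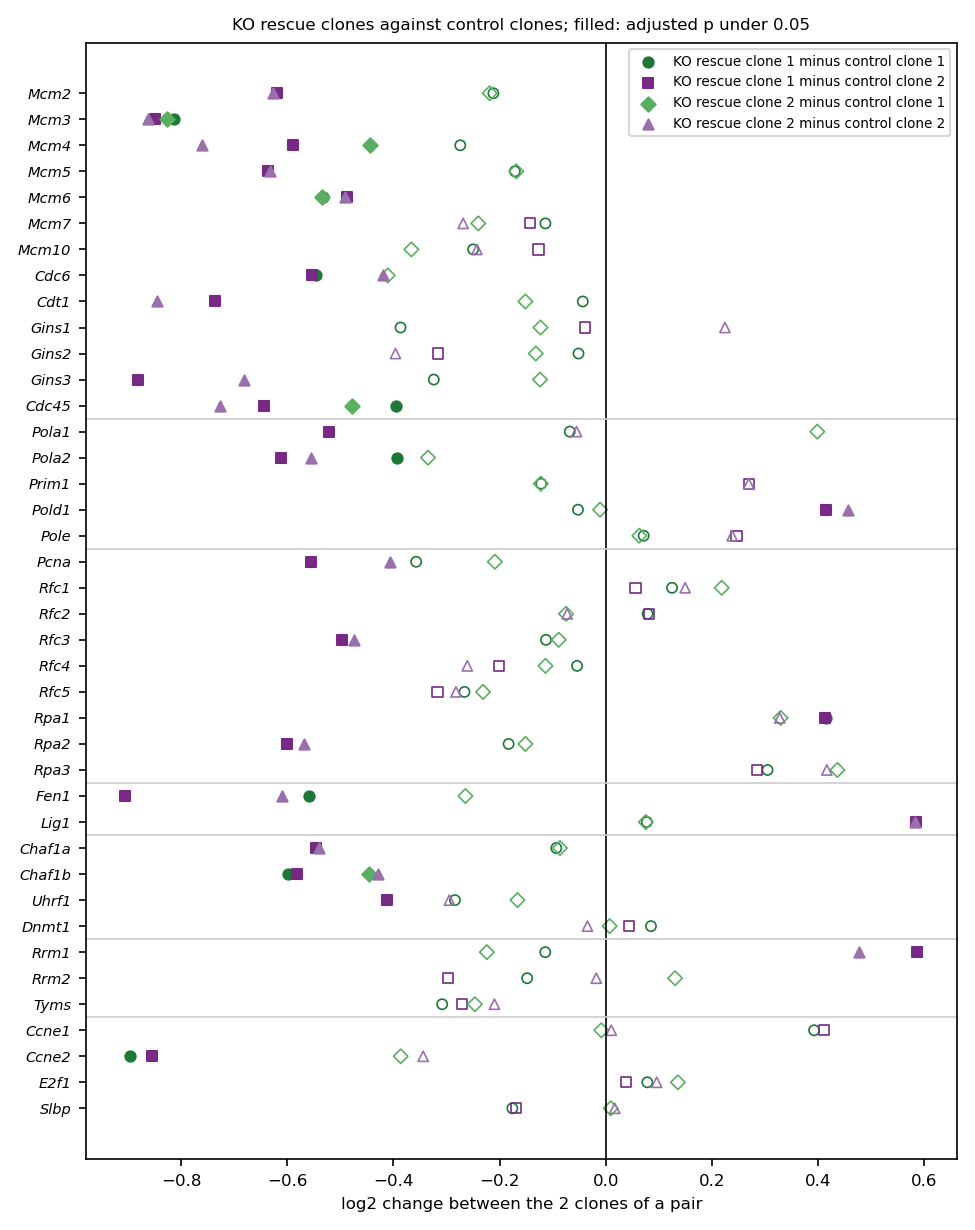
Log2 difference of each of the 40 genes in the 4 pairs of a KO rescue clone and a control clone, with filled points for an adjusted p under 0.05. Mcm3, Mcm6, Cdc45 and Chaf1b are filled to the left of 0 in all 4 pairs, and more points are filled in the pairs with control clone 2.

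Other properties of the libraries differed between these groups too. Introns took 8.84 to 12.2% of the replication genes' fragments in KO rescue, 6.13 to 9.96% in control and 6.31 to 7.33% in RBM45 KO. The 2 libraries of control clone 2 alone were at 6.13 and 9.96%. Over all genes the intron share was 19.1 to 22.1% in KO rescue, 18.4 to 20.4% in control and 16.7 to 20.1% in RBM45 KO. The 12 most abundant genes, each at least 0.5% of a library, took 53.3 to 61.6% of KO rescue libraries, 58.6 to 69.6% of control and 63.9 to 70.6% of RBM45 KO libraries. KO rescue and control overlapped in each of these shares. KO rescue and RBM45 KO overlapped in the intron share over all genes. They did not overlap in that of the replication genes or in the share of the abundant genes. With those 12 genes left out of the table, the median difference of the replication genes between KO rescue and control was -0.25 and that between KO rescue and RBM45 KO was -0.18. Marker sums differed too. The 8 oligodendrocyte lineage markers summed to 48.1 to 57.96 CPM in KO rescue, 90.3 to 112 in control and 73.7 to 131 in RBM45 KO. The 19 neuron markers summed to 88.2 to 103 CPM in KO rescue and 107 to 151 in control, and the 6 astrocyte markers to 0.705 to 1.19 and 2.77 to 25.9. KO rescue and control did not overlap in these 3 sums, while the mesenchymal sums (2924 to 3536 and 3062 to 4603) did. The highest gene of each of the 3 lists was Cspg4 (median 64.4 CPM over the 16 libraries), Map2 (82.1) and Slc1a3 (1.62, range 0 to 24.5). Medians were under 1 CPM for 7 of the 8 oligodendrocyte lineage, 15 of the 19 neuron and 5 of the 6 astrocyte markers. The sums thus mostly follow single genes and do not describe whole lists. Of the markers that passed the filter on low counts (4, 7 and 1 of the 3 lists), 0 passed the adjusted edgeR test between KO rescue and control. The part of these markers and of the intron share in the differences was not tested.

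Within a genotype, clones differed in these genes as well. Between the 2 control clones 7 of the 40 genes passed the edgeR test, against 19.6% of all genes. Rrm1 was at 109 and 106 CPM in control clone 1 and at 69.6 and 62.5 in control clone 2, so it fell by 0.70 on the log2 scale (SE 0.12, edgeR adjusted p = 0.000436). Lig1, Pold1 and Prim1 (the primase catalytic subunit) were lower in control clone 2 too (-0.51, -0.47 and -0.39), and Cdt1, Mcm5 and Chaf1a (the large CAF-1 subunit) were higher (0.69, 0.46 and 0.45). The clones' libraries did not overlap for each of these 7 genes, but neither did they for 20 of the 40 genes and 55.2% of all genes. The 7 genes were picked by a test on the same libraries, so this adds no support. Leaving out replicate 1 of control clone 1 gave 4 calls, leaving out replicate 2 of that clone gave 2 (Lig1 and Rrm1), and leaving out replicate 1 of control clone 2 gave 4.

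Between the RBM45 KO clones 5 genes passed, all lower in clone 2, against 14.1% of all genes. Pola2 was at 29.5 and 25.6 CPM in clone 1 and at 18.3 and 18.7 in clone 2 (-0.57, SE 0.13, edgeR adjusted p = 0.00445). Mcm3 (-0.65), Mcm6 (-0.58), Cdc6 (-0.48) and Cdc45 (-0.45) were the others, all genes of licensing and the helicase. Mcm6 was at 145 and 131 CPM in clone 1 and at 94.7 and 90.3 in clone 2, near the 85.1 to 92.3 CPM of KO rescue. The count fell to 0 without replicate 1 of RBM45 KO clone 1, to 1 without replicate 1 of RBM45 KO clone 2 (Mcm3), to 1 without replicate 2 of that clone (Pola2), and to 3 in DESeq2 or with no filter on low counts. Between the KO rescue clones 0 genes passed, against 2.29% of all genes. The control libraries together differed from WT in 1 of the 40 genes, against 8.99% of all genes: Pola1 was at 44.9 and 52.3 CPM in WT and at 53.5, 69.8, 66.2 and 102 in control, with a log2 difference of 0.57 (SE 0.17, edgeR adjusted p = 0.0494). That call was lost under RLE scaling, without the 12 abundant genes, and without replicate 1 of WT or replicate 2 of control clone 1, each time with 0 genes called. Without replicate 2 of WT the count was 2 (Cdt1 and Rpa2), without replicate 1 of control clone 2 it was 2 (Pola1 and Rpa2), and without replicate 2 of control clone 2, or in the table of exons, it was 1 (Mcm6).

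METTL3 KO had lower levels of clamp, chromatin and helicase genes than WT. Of the 40 genes 14 passed the edgeR test with libraries as units, against 22.9% of all genes, 11 of them lower (11.8% of all genes were lower) and 3 higher. The median log2 difference was -0.30 (all genes 0.014), and 31 genes were below 0, all 13 licensing and helicase genes among them. METTL3 KO is 1 clone and WT is no clone, so the effect of the knockout and that of the clone cannot be told apart.

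**Figure D5:**
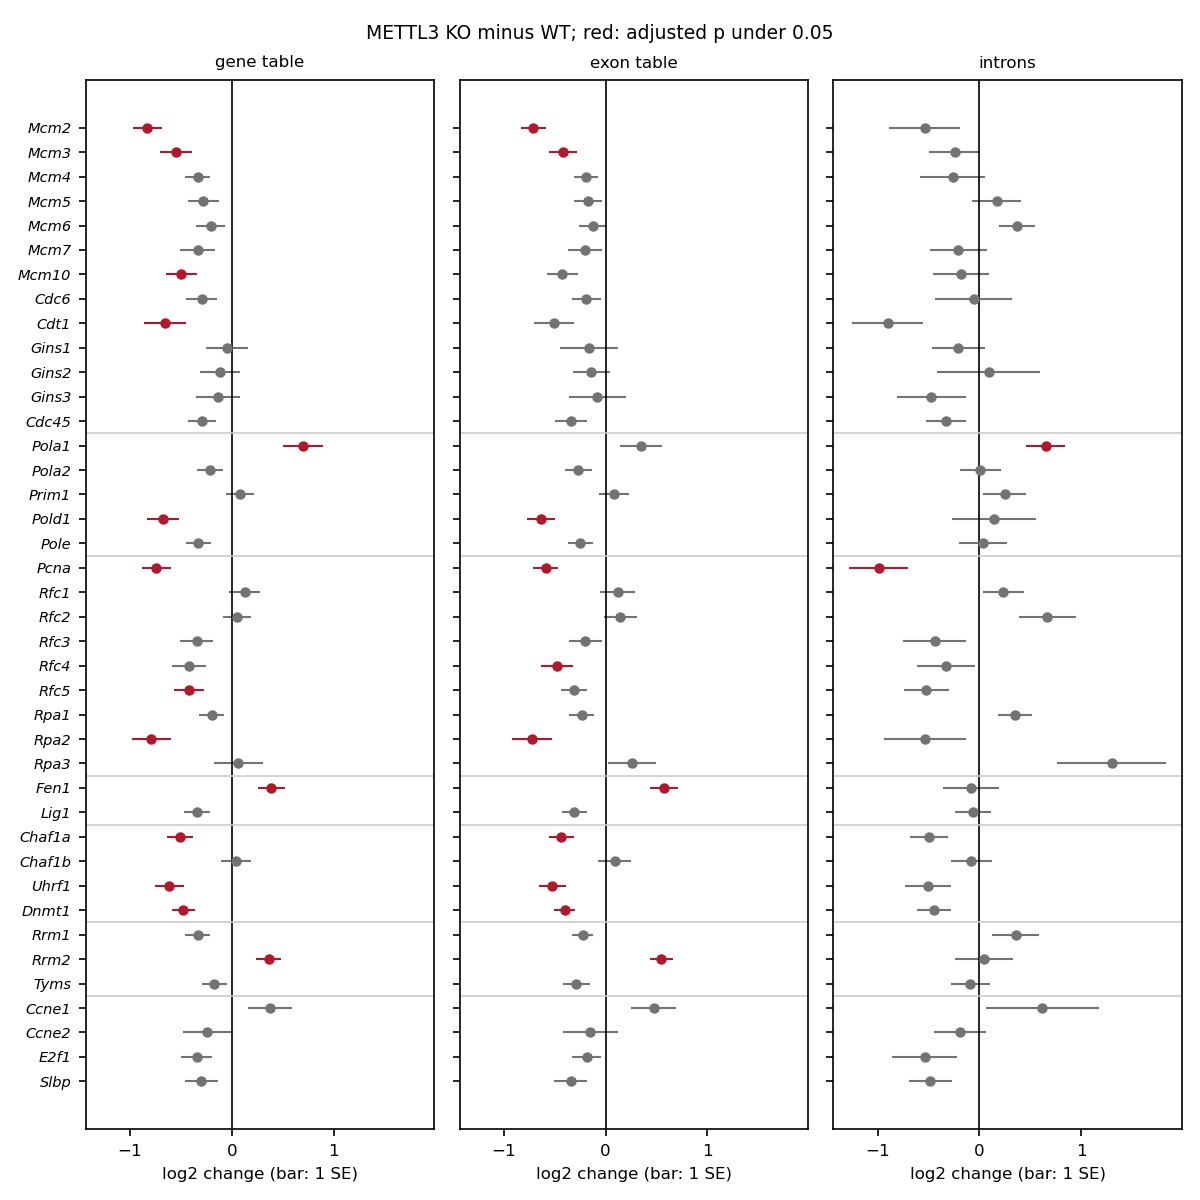
Log2 difference of each of the 40 genes between METTL3 KO and WT in the gene table, the table of exons and the table of introns, with red for an adjusted p under 0.05. In the gene table the 11 red genes with lower levels lie below 0 and Pola1, Fen1 and Rrm2 lie above; in introns the red genes are Pcna and Pola1.

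Of the helicase genes, Mcm2 was at 119.8 and 105 CPM in WT and at 64.5 and 62.0 in METTL3 KO, and fell by 0.83 on the log2 scale (SE 0.15, edgeR adjusted p = 0.000776). Mcm3 was at 112 and 86.9 CPM in WT and at 71.6 and 64.2 in METTL3 KO (-0.55, SE 0.16, edgeR adjusted p = 0.0200). Both genes were lower in both knockout libraries, and Mcm2 varied less between the WT libraries. Cdt1, the licensing factor destroyed in S phase, was at 63.9 and 37.1 CPM in WT and at 34.0 and 29.8 in METTL3 KO (-0.66, SE 0.21, edgeR adjusted p = 0.0290), and Mcm10 at 23.2 and 17.7 against 14.96 and 13.8 (-0.50, SE 0.15, edgeR adjusted p = 0.0245). For Cdt1, replicate 2 of WT lay much closer to METTL3 KO than replicate 1 did. The 9 other genes of the role did not pass.

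Pcna was at 72.7 and 60.8 CPM in WT and at 41.5 and 38.3 in METTL3 KO, and fell by 0.74 on the log2 scale (SE 0.14, edgeR adjusted p = 0.00148). Rpa2, the middle subunit of the single-strand binding protein, was at 24.5 and 17.9 CPM in WT and at 13.1 and 11.4 in METTL3 KO (-0.79, SE 0.19, edgeR adjusted p = 0.00675). Rfc5 also passed (-0.42, edgeR adjusted p = 0.0473), and the other 6 genes of clamp, loader and RPA did not. Of the 4 chromatin genes 3 fell. Uhrf1, which brings DNMT1 to newly copied DNA, was at 86.1 and 80.4 CPM in WT and at 55.5 and 53.3 in METTL3 KO (-0.61, SE 0.14, edgeR adjusted p = 0.00539). Dnmt1 was at 149 and 147 CPM in WT and at 108 and 105 in METTL3 KO (-0.48, SE 0.11, edgeR adjusted p = 0.00658), and Chaf1a at 67.5 and 60.1 against 46.9 and 42.9 (-0.51, SE 0.13, edgeR adjusted p = 0.00937). These 3 had replicates close together and groups far apart. However, the libraries of METTL3 KO and WT did not overlap for 62.5% of all genes, and METTL3 KO was wholly below WT for 30.2%. The 3 genes were picked by a test on the same libraries, so such separation adds no support to their calls. Chaf1b, the partner of Chaf1a in CAF-1, was at 27.9 and 25.2 CPM in WT and 27.6 and 27.0 in METTL3 KO, and did not pass.

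The polymerase genes moved both ways. Pold1 was at 28.5 and 26.0 CPM in WT and at 17.2 and 16.9 in METTL3 KO, and fell by 0.67 on the log2 scale (SE 0.16, edgeR adjusted p = 0.00597). Pola1 was at 44.9 and 52.3 CPM in WT and at 77.7 and 80.8 in METTL3 KO, so it rose by 0.70 (SE 0.20, edgeR adjusted p = 0.0162). In exons alone, Pola1 differed by 0.35 (edgeR adjusted p = 0.259), and in introns by 0.65 (SE 0.19, edgeR adjusted p = 0.0209). The gene's row also overlaps Gm14780 on the other strand, and the library kit does not mark strand. Fen1 was at 31.7 and 32.3 CPM in WT and at 44.8 and 39.2 in METTL3 KO (0.39, SE 0.13, edgeR adjusted p = 0.0377), and Rrm2, the small subunit of ribonucleotide reductase, at 51.7 and 51.6 against 62.6 and 69.9 (0.36, edgeR adjusted p = 0.0450). None of the 4 regulators of S phase passed.

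The count of 14 depended on which library was left out. It was 5 without replicate 1 of WT (Dnmt1, Mcm2, Pcna, Pold1 and Uhrf1), 11 without replicate 2 of WT, 7 without replicate 1 of METTL3 KO, and 2 without replicate 2 of METTL3 KO (Mcm2 and Pcna). Mcm2 and Pcna were thus called whichever of these 4 libraries was left out. Introns took 10.6 to 12.1% of the replication genes' fragments in METTL3 KO and 6.92 to 7.38% in WT. Over all genes the intron share was 21.6 to 22.2% in METTL3 KO and 18.6 to 19.6% in WT. The 12 abundant genes took 53.5 to 56.8% of METTL3 KO libraries and 64.6 to 68.5% of WT libraries. With those 12 genes left out, 13 genes passed. Counted in exons alone, Mcm10, Cdt1, Rfc5 and Pola1 did not pass (edgeR adjusted p = 0.0639, 0.0819, 0.111 and 0.259). Rfc4 passed in exons only (-0.48, edgeR adjusted p = 0.0427). The 10 mesenchymal markers summed to 1944 to 1948 CPM in METTL3 KO and 2746 to 2868 in WT, but they did not move together. By the edgeR test 3 of them fell (Acta2 by 2.12, Fn1 by 1.05 and Vim by 0.65 on the log2 scale) and 4 rose (Col3a1 by 4.58, Col1a1 by 1.71, Col1a2 by 1.37 and Pdgfrb by 0.84). The part of these markers and of the intron share in the result was not tested.

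Introns of the 40 genes, which come mostly from RNA not yet spliced, were tested in the table of introns. Between RBM45 KO and control, KO rescue and RBM45 KO, and KO rescue and control, 0 genes passed the adjusted edgeR test over clones, and 0%, 0% and 0% of all genes did. The counts at an unadjusted p under 0.05 were 1, 2 and 6, against 5.3%, 6.67% and 15.5% of all genes. Median log2 differences in introns were -0.16, -0.07 and -0.25 for the 3 comparisons, and without RBM45 KO clone 1 that between KO rescue and RBM45 KO was 0.09. Between KO rescue and control all 13 licensing and helicase genes were below 0 in introns as well, with a median of -0.45. Between METTL3 KO and WT 2 genes passed, against 14.7% of all genes: Pcna at -0.99 (edgeR adjusted p = 0.0196) and Pola1. That count was 0 without replicate 1 of either group, 6 without replicate 2 of WT and 1 without replicate 2 of METTL3 KO.

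Gene, exon and intron tables were of 1 sign for most of the 40 genes. Between KO rescue and control 27 genes were below 0 in all 3 tables and 10 above, between KO rescue and RBM45 KO 21 and 5, between RBM45 KO and control 25 and 8, and between METTL3 KO and WT 23 and 7. The tables count many of the same fragments, so this is no independent support, and the shares over all genes are not given here. Exon by exon, no change in the use of an exon was called in these genes: of 707 exon bins in the 40 genes, 0 passed edgeR's test of differential exon usage between RBM45 KO and control, between KO rescue and RBM45 KO, or between METTL3 KO and WT. Of all 101929 bins, 0.00392%, 0.000981% and 0.0137% passed in these 3 comparisons. On simulated counts for METTL3 KO and WT, the test recovered 59.5% of bins changed by 2 on the log2 scale. Smaller changes could thus be missed.

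Other genes of replication and the cycle were taken from lists for comparison. Of 44 other replication genes 0 passed over clones in any of the 3 comparisons. Between KO rescue and control their median was -0.09, and those with the smallest p were Recql4, a helicase of replication initiation (-0.80), Asf1b, a histone chaperone (-0.57), and Chtf18, of an alternative clamp loader (-0.56). Between RBM45 KO and control their median was -0.13, with Pold2 at 0.51, Hells at -0.57 and Orc6 at -0.52. Between METTL3 KO and WT 6 of the 44 passed, 2 higher and 4 lower, against 22.9% of all genes called and 11.8% lower. Chtf18 fell by 0.99 (edgeR adjusted p = 0.00234) and Nasp, a histone chaperone, fell by 0.55 (edgeR adjusted p = 0.00611), and Atad5, which unloads PCNA, rose by 0.66 (edgeR adjusted p = 0.0164). Chtf18, Pcna and Rfc5 were lower in METTL3 KO and Atad5 was higher, but these genes were named because they passed the test. Of the other RFC genes, Rfc1 and Rfc2 stood at 0.13 and 0.05, and Rfc3 and Rfc4 at -0.35 and -0.42. None of them passed in whole-gene counts.

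Among 29 genes of the G1 to S transition 0 passed over clones. Cdk6, a kinase of G1, stood at -0.99 between KO rescue and control and at -1.26 between KO rescue and RBM45 KO, and Ccnd1, its cyclin, at 0.83 between RBM45 KO and control. In METTL3 KO 2 of the 29 rose and 6 fell, against 22.9% of all genes called and 11.8% lower. Cdkn1a, the inhibitor p21, rose by 1.41 (edgeR adjusted p = 0.00266), Rb1, which represses E2F targets, rose by 0.97 (edgeR adjusted p = 0.000516), and E2f4, a repressive E2F, fell by 0.69 (edgeR adjusted p = 0.00262). Of 25 mitosis genes 0 passed over clones, with medians of 0.01, -0.12 and -0.06 between RBM45 KO and control, KO rescue and RBM45 KO, and KO rescue and control. In METTL3 KO 10 of the 25 fell and 0 rose (median -0.38), against 11.8% of all genes that were lower. Cdc20, an activator of the anaphase-promoting complex, fell by 1.09 (edgeR adjusted p = 7.56e-05), Cdk1 by 0.63 (edgeR adjusted p = 0.00101) and Foxm1 by 0.60 (edgeR adjusted p = 0.00213).

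Replication-dependent histone genes, whose RNA is made in S phase and lacks a poly(A) tail, were kept by the ribodepleted libraries. Their 33 genes had a median of 0.45 between RBM45 KO and control, with all 33 above 0, of -0.52 between KO rescue and RBM45 KO, with all 33 below 0, and of -0.08 between KO rescue and control. None passed the adjusted test over clones. In the first 2 comparisons 23 and 28 had an unadjusted p under 0.05, against 5.83% and 7.35% of all genes. Summed histone levels were 1166 to 2228 CPM in control, 1852 to 2863 in RBM45 KO and 1303 to 1761 in KO rescue, with overlap between RBM45 KO and control. The 2 libraries of control clone 2 alone were at 2228 and 1166, a spread that sums per clone do not show. In METTL3 KO 7 of the 33 histone genes fell and 0 rose (median -0.66), against 22.9% of all genes called and 11.8% lower. The summed level was 1054 to 1064 CPM against 1583 to 1740 in WT.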

How the data were processed

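Total RNA of 16 mHiPPoE-2 libraries in 8 groups of 2 was ribodepleted and made into libraries with a non-directional kit, per the labels' protocols. Per the file headers, the authors deposited raw fragment counts from featureCounts 1.6.3 (1 strand, minimum overlap 0.1, multi-mapping reads left out, a fragment counted for every feature it overlaps). One table counts whole gene bodies, introns included, and one counts exon bins, both on flattened Ensembl 98 models; another counts introns on RefSeq models. HISAT2 2.1.0 and mm10 are named in the submitters' processing notes. Of the 53333 gene rows, 53174 matched a symbol. Because the kit does not mark strand, reads of the 14 members that overlap a gene on the other strand cannot be told apart from that gene's.

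Control columns match no label by name and were assigned because all other columns match other groups; clone numbers of controls and rescues are names only. Counts were scaled by TMM and tested with edgeR 4.0.16 (quasi-likelihood, filterByExpr, Benjamini-Hochberg over all genes tested, threshold 0.05) in R 4.3.3, on sums per clone for the RBM45 groups (6 clones) and on libraries for METTL3 KO, WT and single clones. With 2 clones against 2, an exact permutation test could not go below 0.333. The tests were run on simulated data first. For KO rescue and control over 6 clones, 0% of genes changed by 0.5 on the log2 scale were recovered. At changes of 1 and 2 the shares were 14% and 80%. With libraries as units for METTL3 KO and WT, 12% were recovered at 0.5 and 82% at 1. A count of 0 over clones thus does not show that levels were equal. Alternatives were DESeq2 1.42.0, RLE factors, no low-count filter, no abundant genes, the exon table, libraries as units, a replicate block and leaving out clones or libraries; leaving out libraries for the pairs of clones, clones or libraries for introns, and the replicate block with libraries as units or for pairs of clones, were added after seeing the data.

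The 40 members, the gene lists and the markers were chosen with earlier results of these data known. Genes named per comparison are the members that passed (at most 12, smallest p first) or else the 5 with the smallest p, with up to 3 genes of each other list; other members are described within their role. No per-sample column was left unused.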

Additional observations from a re-analysis of the deposited data

How the results depend on the processing

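No log2 difference of a gene named by the rule changed sign under any alternative run. Medians near 0 did: RBM45 KO against control went from -0.094 to 0.0129 without control clone 2, controls against WT ranged from -0.0438 to 0.0613, and the control clones from -0.0228 to 0.196. Of the 40 genes, libraries as units called 7 between RBM45 KO and control, 11 between KO rescue and RBM45 KO and 22 between KO rescue and control, where the fit over clones called 0, and DESeq2 called 1 in the last. Between controls and WT the count of 1 became 0 with RLE factors and 0 without the abundant genes, and ranged from 0 to 2 leaving out 1 library. Between the RBM45 KO clones the count of 5 became 3 in DESeq2 and 3 with no low-count filter, and ranged from 0 to 4 leaving out 1 library. Leaving out 1 library in turn gave 2 to 11 genes for METTL3 KO and WT, 2 to 7 for the control clones, 1 to 4 for all 4 pairs of KO rescue and control, and 0 to 6 for introns of METTL3 KO and WT; the lone library of an arm was then assumed to vary like the other groups. With the number at the end of each column name as a replicate block, the counts were 14 for METTL3 KO and WT, 2 for controls and WT, 11 for the control clones, 5 for the RBM45 KO clones and 0 for the KO rescue clones. With libraries as units and the block they were 7, 11 and 23 for RBM45 KO and control, KO rescue and RBM45 KO, and KO rescue and control, and the same 4 genes held in all 4 pairs of KO rescue and control. The labels tie the numbers to nothing shared, and correlations of same-numbered libraries' deviations ranged from -0.27 to 0.437 over 28 pairs of groups. No paired analysis was possible over clones because their libraries are summed. Depth limits most the genes with the fewest counts, and the lowest mean count of a member was 74.1.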
